A study of Mus musculus with 4 samples.

Results

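miR-383 was followed as its 2 mature arms, mmu-miR-383-5p and mmu-miR-383-3p, which are 2 of the 1907 mature miRNAs counted in each library. Both names were taken as the count files give them, and the hairpin was chosen by its TAA against control difference in these same 4 libraries. That difference is therefore described for both arms, with no test. Small RNA was sequenced from whole livers of 15-week-old C57BL/6 mice. There were 2 libraries in each of 2 groups. TAA mice had received thioacetamide, a liver toxin with which fibrosis is produced in rodents, intraperitoneally at 200 mg/kg, given 3 times a week for 10 weeks. Control mice are labelled only as controls, and the labels name no vehicle, genetic change or sex for either group. The design text calls the libraries of a group biological replicates without tying them to named animals, so the spread between them may be partly technical.

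A miRNA is cut from a hairpin in a longer transcript, and its 5p and 3p strands come from the opposite arms of that hairpin. One strand is usually kept in an Argonaute protein, where its seed (bases 2 to 8) pairs with target mRNAs, and the other is mostly degraded. miR-383 is encoded within Sgcz, the gene for zeta-sarcoglycan, a protein of the sarcoglycan complex of muscle membranes. It is best known from the gonads, with described roles in mouse ovarian granulosa cells and in testis, and it has been reported as lower in several human tumours. It is not among the abundant miRNAs of hepatocytes.

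The hairpin, named Mir383 in the annotation, lies on the minus strand of chromosome 8 at chr8:38252133-38252202 (GRCm38, 70 bases). Sgcz is on the same strand at chr8:37522298-38661508 and spans 1139 kb. Both of its 2 annotated transcripts run across the hairpin, which sits in intron 1 of each, an intron of 708 kb, at 409 kb from the 5′ end of the gene. Sgcz was the only annotated gene that overlapped the hairpin on either strand. Sgcz mRNA was not analysed here, since the libraries hold small RNA.

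**Figure D1:**
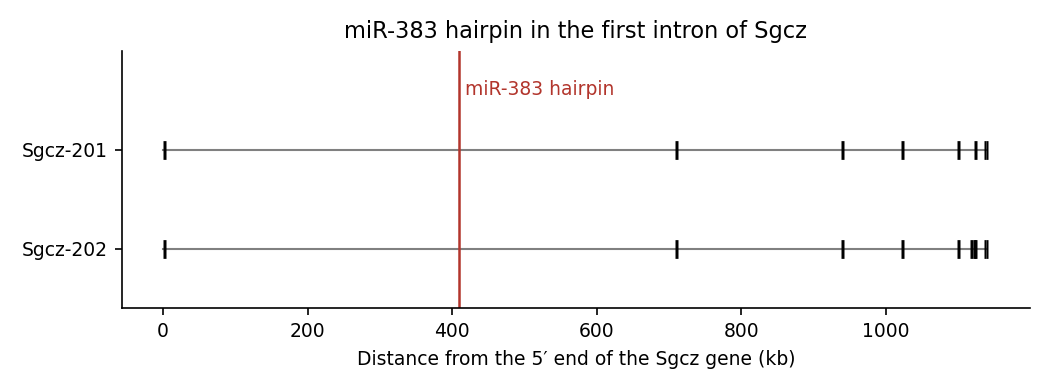
Sgcz transcripts (grey lines, exons as black blocks drawn at least 4 kb wide) against the distance from the 5′ end of the gene in kb, with the miR-383 hairpin as a red line. The hairpin stands 409 kb into the gene, inside intron 1 of both transcripts.

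The libraries held 43836911 and 48878003 miRNA counts in TAA liver, against 42609845 and 46224018 in control liver, so that 1 CPM stood for 42.6 to 48.9 counts before scaling. CPM is counts scaled to library size, here with edgeR's TMM factors. Hepatocyte miRNAs were abundant in all 4 libraries: the 7 listed summed to 326300 and 337000 CPM in TAA liver and 359600 and 392100 CPM in control liver. Of these, miR-122-5p, the hepatocyte-specific miRNA, had 789780 and 897773 counts in TAA liver and 774059 and 923684 in control liver. In bulk liver, fewer cells of a type and less RNA per cell cannot be told apart.

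Within each group, 1 library stood apart in miRNAs of other cells. Pancreatic miRNAs stood apart in control 1: miR-375-3p had 463 and 481 counts in TAA liver, against 4373 in control 1 and 362 in control 2. miR-216a-5p, a pancreatic miRNA too, had 10 and 0 counts in TAA liver against 113 in control 1 and 0 in control 2. Erythroid miRNAs stood apart in TAA 2: miR-486a-5p had 19011 counts in TAA 1 and 75822 in TAA 2, against 10378 and 6747 in control liver. For miR-383-5p, described next, the libraries of a group did not split in this way. Whether such other cells contributed to its counts was not tested.

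miR-383-5p was nearly absent from TAA liver. It had 2 counts in TAA 1 and 0 in TAA 2, against 112 in control 1 and 102 in control 2. The groups did not overlap, and the control libraries were close to each other. In CPM these were 0.0440 (95% exact Poisson interval 0.00533 to 0.159) in TAA 1 and 0 in TAA 2, where 3 counts would have been 0.0585 CPM. They were 2.65 (2.18 to 3.18) in control 1 and 2.39 (1.95 to 2.90) in control 2. The intervals cover counting error only.

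At the control rate, miR-383-5p would have had 114 counts in TAA 1 and 129 in TAA 2. Its mean was 0.0220 ± 0.0311 CPM in TAA liver and 2.52 ± 0.184 CPM in control liver (SD, n = 2 each). Summed over libraries, the 2 TAA counts against the 214 control counts put TAA liver at 0.822% of the control level (95% interval 0.0989% to 3.01%, exact, counting error only). That is a level 122-fold lower, with an interval from 33.3-fold to 1010-fold. The edgeR log2 fold change was -6.74 (SE 0.64). Because TAA liver rests on 2 counts in 1 library, the size of the difference depends on that library. Without TAA 2 the log2 fold change was -5.74. Without TAA 1 no count remains, and the log2 ratio against a floor of 3 counts was -5.43. That value is a bound that takes the control counts as exact.

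The 3p arm was near the limit of detection in every library. miR-383-3p had 0 counts in TAA 1 and in TAA 2, against 3 in control 1 and 4 in control 2. In CPM it was 0 in both TAA libraries, against 0.0709 (0.0146 to 0.207) in control 1 and 0.0936 (0.0255 to 0.240) in control 2. The intervals of the TAA libraries, up to 0.0812 and 0.0719 CPM, overlap those of the controls, so single libraries do not separate the groups. Over both libraries, 0 counts against 7 put TAA liver 2.65-fold lower with 3 counts over the group as the floor. This bound takes the 7 control counts as exact, and their counting error could make it smaller. With 1 TAA library left out, the log2 bound shrank to between -0.50 and -0.31. miR-383-3p did not pass the filter on low counts, so of the 2 arms only 5p entered the fit across miRNAs.

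**Figure D2:**
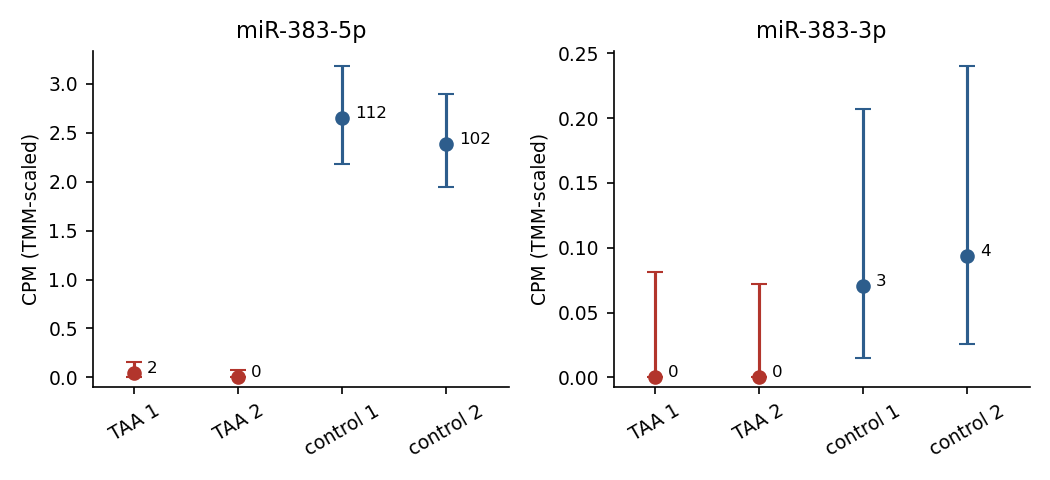
TMM-scaled CPM of miR-383-5p (left) and miR-383-3p (right, another scale) in each library, TAA in red and control in blue, with the read count beside each point and bars for the 95% exact Poisson interval. The 5p arm had 2 and 0 counts in TAA liver against 112 and 102 in control liver; the 3p arm had 0 and 0 against 3 and 4.

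The 5p arm was the major product of the hairpin wherever it could be measured. In TAA liver both of the 2 reads of the hairpin were 5p, which allows a share of 34.2% to 100% (95% Wilson interval) and so says little about arm use. In control 1 it made up 112 of 115 reads, 97.4% (92.6% to 99.1%), and in control 2 it made up 102 of 106, 96.2% (90.7% to 98.5%). The controls agree within these intervals. Such a one-sided hairpin was usual in these livers: of 237 hairpins with both arms named and at least 100 control counts, the median share of the major arm was 98.3%, and 133 of the others were at or above the 96.8% of miR-383.

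In control liver miR-383-5p was low in CPM, at a mean of 2.52. It ranked 356th by mean CPM of 1125 miRNAs with a count in a control library. Its neighbours in that order show what miRNAs of the same abundance did. miR-29b-1-5p, miR-210-5p and miR-101b-5p stood just above it, and miR-138-5p, miR-379-5p and miR-25-5p just below. miR-138-5p had 94 and 91 counts in TAA liver against 109 and 94 in control liver, and miR-25-5p had 116 and 110 against 86 and 116. Both missed the threshold, at log2 fold changes of -0.31 (SE 0.25) and -0.02 (SE 0.26). miR-379-5p, from the imprinted Dlk1-Dio3 region, went the other way, with 1365 and 1087 counts in TAA liver against 94 and 109 in control liver (edgeR log2 fold change 3.42 with SE 0.25, adjusted p = 3.75e-05). The remaining 3 had TAA counts between 47 and 111, and none passed the test.

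**Figure D3:**
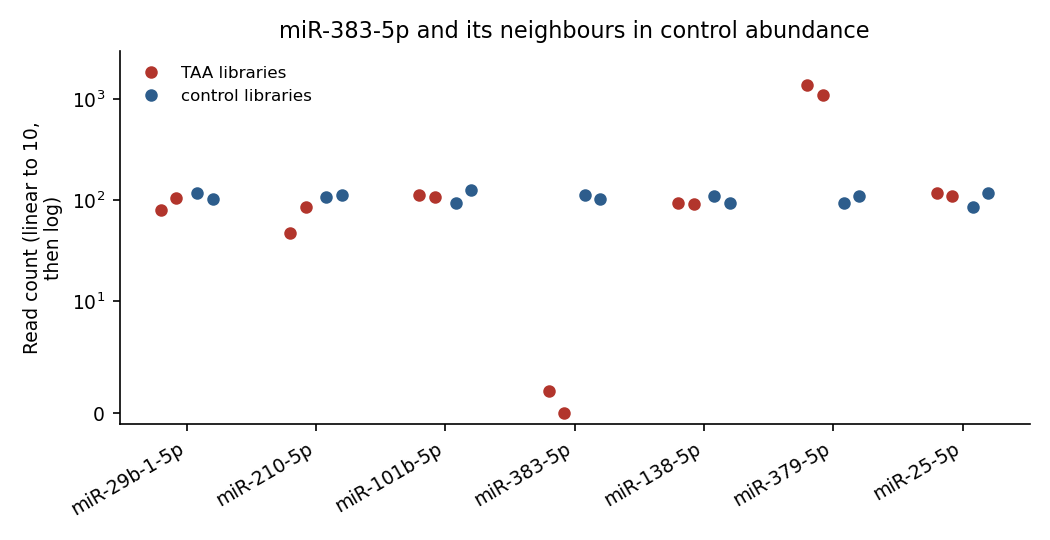
Read counts of miR-383-5p and the 6 miRNAs next to it in control abundance, on an axis that is linear to 10 and logarithmic above, TAA libraries in red and left of the control libraries in blue. Control counts lie between 86 and 125 for all 7; TAA counts are 2 and 0 for miR-383-5p and at least 47 for the other 6.

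A wider set of like abundance was described too. Since miR-383 was chosen by this contrast, its low place in such sets adds no support. Of the 644 miRNAs that passed the filter, 103 others had a control mean within 2-fold of that of miR-383-5p (1.26 to 5.02 CPM). Their median level in TAA liver was 96.8% of control, and the lowest after miR-383-5p was miR-216a-5p at 8.24%. That value rests on single libraries, since miR-216a-5p was detected in 1 library of each group. The next was miR-741-3p at 39.3%. Among all miRNAs, 489 had at least 20 counts in both controls, and miR-383-5p was the 1 of them with at most 3 counts over both TAA libraries; the lowest sum among the others was 11. This count was chosen after the values were seen. In the opposite direction, 532 miRNAs had at least 20 counts in both TAA libraries, and 2 of them had at most 3 counts over both controls, miR-134-3p and miR-382-3p, both in the Dlk1-Dio3 region.

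By log2 fold change, miR-383-5p was the lowest of the 644. The next were miR-216a-5p at -3.63 (SE 1.67), which did not pass the test, and miR-3065-5p at -2.70 (SE 0.58, edgeR adjusted p = 0.0154), with 8 and 3 counts in TAA liver against 31 and 34 in control liver. The hairpin of miR-3065 overlaps that of miR-338 on the opposite strand, so its reads are uncertain without stated strand settings. In all, 17 of the 644 were called lower in TAA liver, 2.64%, and 90 higher, 14.0%, by edgeR's quasi-likelihood F test at an adjusted p under 0.05. miR-383-5p is one of the 17, and nothing is read from that, because this contrast chose it. Many of the 90 are miRNAs of the Dlk1-Dio3 region, and a fit without that region called 7 of 576 higher and 5 lower. The 14.0% set beside the lists below includes that region.

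**Figure D4:**
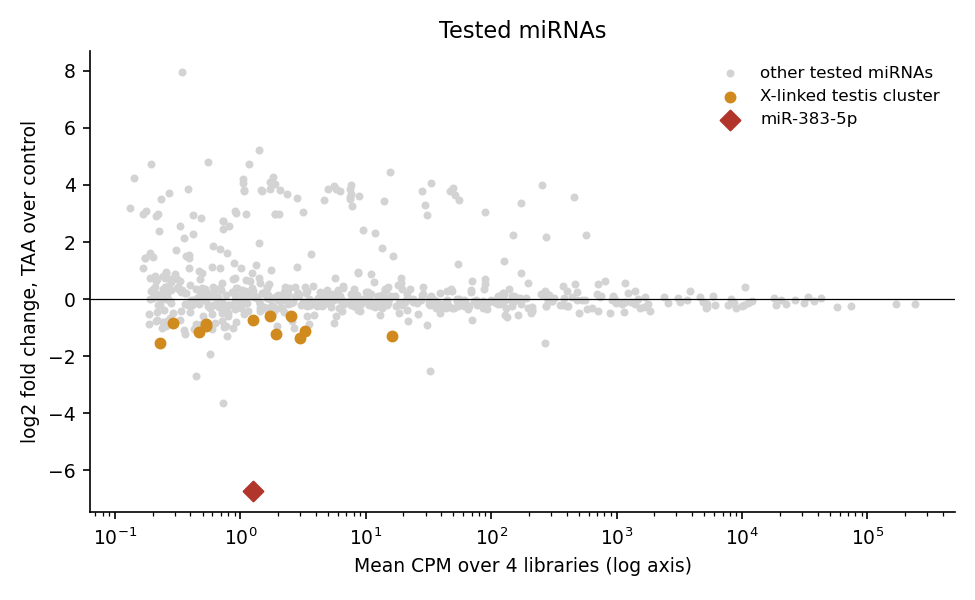
log2 fold change of TAA over control liver against mean CPM over the 4 libraries (log axis) for the 644 tested miRNAs, with miR-383-5p as a red diamond and the tested miRNAs of the X-linked testis cluster in orange. miR-383-5p is the lowest point at -6.74; the tested cluster miRNAs lie between -1.56 and -0.59. Fitted values of miRNAs with no count in a group depend on the prior count.

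The nearest other hairpins on chromosome 8 with a mean of at least 1 CPM in an arm were those of miR-486a and miR-486b, overlapping hairpins on opposite strands 15.1 Mb away, and miR-1968, 25.1 Mb away in Grtp1. miR-486a-5p measured 948 ± 749 CPM in TAA liver and 201 ± 61.7 CPM in control liver (SD, n = 2 each; edgeR log2 fold change 2.23 with SE 0.51, adjusted p = 0.0199). Its reads, like those of miR-3065-5p, are uncertain without stated strand settings. miR-1968-5p, with 199 and 277 counts in TAA liver against 204 and 225 in control liver, had a log2 fold change of -0.04 (SE 0.21). In none of the 3 did both TAA libraries lie below both controls.

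The miRNAs whose 4 library values were most like those of miR-383-5p were sought over the 460 miRNAs with a mean of at least 1 CPM. Likeness was the distance between log2(CPM + 0.5) values, each centred on its own mean. The 8 nearest, in order, were miR-10b-5p, miR-871-3p, miR-741-3p, miR-470-5p, miR-210-3p, miR-881-3p, miR-200c-3p and miR-676-5p. Their distances ran from 1.06 to 1.78 and their log2 fold changes from -1.54 to -0.77, so none approached the size seen for miR-383-5p. miR-10b-5p, encoded in the Hoxd cluster, had 6515 and 6644 counts in TAA liver against 20029 and 13739 in control liver. With only 4 libraries and values not scaled to a common spread, this measure favours the larger decreases shared by both TAA libraries. All 8 were among the miRNAs called lower, so their place here restates those calls. The added 0.5 CPM shrinks the decrease of miR-383-5p on this scale. Among the 8, miR-871-3p, miR-741-3p, miR-470-5p and miR-881-3p come from 1 place, an X-linked cluster near Fmr1 that is expressed mainly in mouse testis.

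Because miR-383 is known from the gonads, that cluster was described as a list. The list was chosen with earlier results of these data known, so calls in it are not independent support. The 38 mature miRNAs of the cluster lie on chromosome X between 66776757 and 68010179 (GRCm38). Those of miR-201, miR-547 and miR-509 lie apart from the rest. The mature sequences of the 4 that were called lower are shown to let their seeds be compared (RefSeq, GRCm38.p6, all on the minus strand; capitals mark the seed).
miR-871-3p (chrX:66810438-66810460): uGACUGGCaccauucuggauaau
miR-470-5p (chrX:66813995-66814017): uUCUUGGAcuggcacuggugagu
miR-741-3p (chrX:66796809-66796831): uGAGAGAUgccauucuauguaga
miR-881-3p (chrX:66801954-66801975): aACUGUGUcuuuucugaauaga
The 4 seeds differ, and no other mature mouse miRNA of the table carries any of them. miR-871-3p and miR-470-5p share a run of 9 bases, GACUGGCAC, which starts at base 2 of miR-871-3p, within its seed, and at base 7 of miR-470-5p.

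Of the 38 cluster miRNAs, 12 passed the filter, and 4 of these were called lower and 0 higher, beside the 2.64% called lower among all tested. miR-871-3p, the most abundant, had 426 and 482 counts in TAA liver against 974 and 969 in control liver, or 9.38 ± 0.0162 CPM against 22.8 ± 0.241 CPM (edgeR log2 fold change -1.28 with SE 0.17, adjusted p = 0.00113). miR-470-5p had 100 and 102 counts in TAA liver against 192 and 193 in control liver (edgeR log2 fold change -1.11 with SE 0.21, adjusted p = 0.00868). In both miRNAs the replicates were close and the groups far apart. miR-741-3p had 102 and 59 counts against 164 and 204 (edgeR log2 fold change -1.35 with SE 0.33, adjusted p = 0.0248). miR-881-3p had 52 and 61 against 86 and 145 (edgeR log2 fold change -1.21 with SE 0.32, adjusted p = 0.0335).

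The 12 tested miRNAs of the cluster had a median log2 fold change of -1.03, from -1.56 to -0.59, beside a median of -0.0042 over all 644. In 12 of the 12 both TAA libraries lay below both controls, as did 25.6% of all tested miRNAs. Of the 12, miR-201-5p and miR-547-3p lie apart from the rest, and both had -0.59. The others share 1 locus, so the 12 are not independent. The 3p arms of miR-465b and miR-465c have the same sequence and their 5p arms are near-identical, so the reads of both are uncertain. The lowest value, -1.56, is that of miR-465b-3p. The other 26 held few reads, with at most 15 counts in any library and 7 at 0 in every library. Summed, these 26 had 41 and 31 counts in TAA liver against 42 and 68 in control liver, where TAA 1 and control 1 were alike. The calls depended on the libraries: 2 cluster miRNAs were called lower without TAA 1, 1 without TAA 2, 5 without control 1 and 3 without control 2. Without the Dlk1-Dio3 miRNAs 2 were called, miR-871-3p and miR-470-5p. miR-871-3p was called in each of these fits.

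Of 11 other miRNAs of germ cells and gonads, 4 were tested, and 2 rose and 0 fell, beside 14.0% called higher among all tested. The 4 are the arms of miR-34b and miR-34c, neighbouring hairpins of 1 locus on chromosome 9, so they are not independent and do not stand for the whole list. miR-34c-5p, a p53-induced miRNA that is also abundant in testis, had 1293 and 1054 counts in TAA liver against 389 and 345 in control liver (edgeR log2 fold change 1.505 with SE 0.22, adjusted p = 0.00172). miR-34b-3p, from the same locus, had 39 and 27 counts against 8 and 4 (edgeR log2 fold change 2.27 with SE 0.57, adjusted p = 0.0286), and it did not pass without TAA 1, TAA 2 or control 2, or without the Dlk1-Dio3 miRNAs. Both arms of miR-202, a miRNA of the gonads, were at 0 in all 4 libraries, and miR-449a-5p had 11 and 2 counts in TAA liver against 1 and 2 in control liver. Summed CPM of the list was 22.8 to 31.4 in TAA liver and 8.91 to 10.1 in control liver, most of it miR-34c-5p.

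Muscle miRNAs were read because Sgcz encodes a muscle protein. Of 7, 2 were tested and 0 were called, beside 2.64% called lower and 14.0% called higher among all tested, with a summed level of 3.06 to 3.39 CPM in TAA liver and 3.95 to 5.22 CPM in control liver. miR-133a-3p had 117 and 148 counts in TAA liver against 149 and 202 in control liver (edgeR log2 fold change -0.59 with SE 0.24, adjusted p = 0.159), and without control 1 it was called lower. Its edgeR adjusted p ran from 0.0286, in that fit, to 0.527, without control 2. miR-206-3p, a miRNA of skeletal muscle, had 0 and 0 counts against 0 and 1, and miR-208a-3p, of heart muscle, was at 0 throughout.

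Of 13 miRNAs enriched in brain, 8 were tested, and their median log2 fold change was -0.16. In all, 1 rose and 0 fell, beside 14.0% called higher among all tested. Without the Dlk1-Dio3 miRNAs, 7 of 576 were called higher, and 1 of the 8 was among them. The one that rose was miR-129-5p, with 178 and 197 counts in TAA liver against 81 and 71 in control liver (edgeR log2 fold change 1.12 with SE 0.22, adjusted p = 0.0104), and without TAA 1 or without TAA 2 it did not pass. miR-137-3p had 559 and 474 counts against 539 and 575, and did not pass. miR-124-3p, a neuronal miRNA, had 0 and 5 counts against 0 and 2. The list's summed level, 75.6 to 81.4 CPM in TAA liver, overlapped the 79.8 to 83.2 CPM of control liver.

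In liver's own cells, 0 of 7 hepatocyte miRNAs were called, beside 2.64% called lower among all tested. Their log2 fold changes ran from -0.49 to -0.14 around a median of -0.24, and in 6 of the 7 both TAA libraries lay below both controls, beside 25.6% of all tested. In other fits 2 were called lower with upper-quartile factors, with no filter and without control 1, and 1 without control 2. Of 6 leukocyte miRNAs, 3 rose and 0 fell, at a median of 0.63, beside 14.0% called higher among all tested. miR-150-5p, of mature lymphocytes, had 8533 and 8830 counts in TAA liver against 2852 and 3190 in control liver (edgeR log2 fold change 1.34 with SE 0.14, adjusted p = 0.000241). Without TAA 1 or without TAA 2 only miR-150-5p passed, and without control 2 all 6 rose. With upper-quartile factors or without the Dlk1-Dio3 miRNAs 2 rose, and miR-342-3p did not pass. Both lists moved by far less than miR-383-5p. Their part in its difference was not tested.

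**Figure D5:**
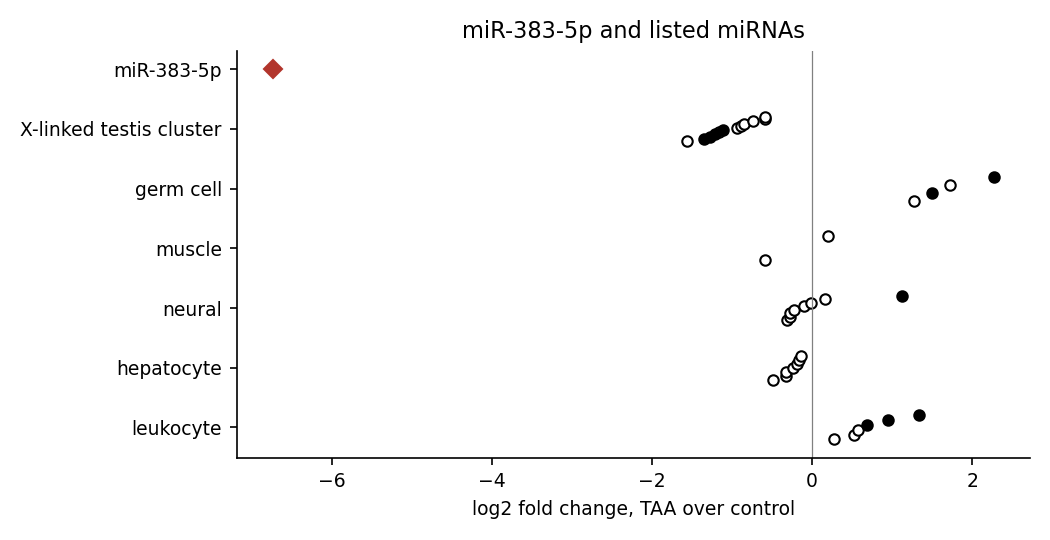
log2 fold change of TAA over control liver for miR-383-5p (red diamond) and for each tested miRNA of the 6 lists, filled where edgeR's adjusted p was under 0.05. The X-linked testis cluster and the hepatocyte list lie left of 0, and the germ cell and leukocyte lists right of 0. miR-383-5p stands apart at -6.74.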

How the data were processed

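The authors deposited a file of raw read counts per mature miRNA for each library. The submitters' processing notes name Bowtie, HTSeq and the build mm10. Not given in the sources used here are versions, settings, trimming and the miRNA annotation. Rows that name no miRNA were left out of library sizes and tests: 24.3% and 26.4% of TAA reads and 23.9% and 22.8% of control reads fell outside annotated miRNAs, and 7.11% to 8.49% were unaligned. The row for reads with several alignments holds 0 in every file.

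The test was the quasi-likelihood F test of edgeR 4.0.16 under R 4.3.3 (TMM factors, filterByExpr, Benjamini-Hochberg over the 644 kept, threshold 0.05). The standard error is the log2 fold change divided by the square root of F, in size. The procedure was tested on simulated data. Groups come from the titles in the labels, and no batch is given. Chi-square of counts between replicates was 207 per degree of freedom for TAA and 150 for control, above sampling noise.

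The arms, lists and tests were chosen with earlier results of these data known. Named miRNAs were both arms, the 8 most alike, the 6 neighbours in control abundance, the 3 nearest hairpins, and from each list the called or most abundant members. The part of that rule on shared seeds was not used here. Added after the values were seen were pancreatic and erythroid miRNAs, the next lowest log2 fold changes, miR-134-3p, miR-382-3p and list members at or near 0. Positions are from GENCODE for GRCm38, which is mm10, with 1886 of 1907 names matched. Alternatives were other normalization factors, other filters, DESeq2 1.42.0, a replicate block, leaving out each library and removing the 115 mature miRNA names of the Dlk1-Dio3 interval.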

Additional observations from a re-analysis of the deposited data

How the results depend on the processing

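miR-383-5p was lower in TAA liver under every alternative tried. Its log2 fold change was -6.90 with upper-quartile factors, -6.63 with library size alone and -6.93 with DESeq2, and it lay between -6.83 and -5.43 when 1 library was left out, the last a bound. The log2 bound of miR-383-3p was -1.58 with upper-quartile factors, -1.28 with library size alone and -1.37 without the Dlk1-Dio3 miRNAs. It lay between -1.61 and -0.31 with 1 library left out. This bound was not computed under other filters, DESeq2 or a block. The difference in log2 5p/3p ratio, TAA minus control with 0.5 added to each count, was -3.60 and ran from -4.76 to -2.44 over the libraries left out, a value set by the added constant since TAA 2 had no read of either arm. Over all tested miRNAs the median was -0.0042, which became -0.17 with upper-quartile factors and 0.12 with library size alone.

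Called lower were 17 miRNAs, against 32 with upper-quartile factors, 32 with no filter, 5 without the Dlk1-Dio3 miRNAs and 2 to 33 with 1 library left out. Called higher were 90, against 7 without the Dlk1-Dio3 miRNAs and 47 to 98 with 1 library left out. Of all calls 84.1% were higher, and 72.2% with upper-quartile factors. In the X-linked cluster 4 were called lower, against 2 without the Dlk1-Dio3 miRNAs and 1 to 5 with 1 library left out. A group left with 1 library is assumed to vary like the other. With the replicate number as a block, 18 were called lower and 92 higher, 4 of the cluster were called lower, and miR-383-5p had -6.75. Same-numbered libraries deviated with a correlation of -0.13. This gave no sign that the numbers pair the libraries, but 1 difference per group cannot exclude it. The crossed pairing, chosen after seeing the data, called 20 lower and 95 higher.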
